A study of Rubus idaeus with 6 samples.

Results

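The 69 gene models described here are transcription factor and zinc finger genes in the intervals on LG3 and LG4 that the study linked to annual fruiting (AF) in raspberry. They were taken from the study's table of gene models in these intervals, of which only the first part was used here, by words in the description of the closest Arabidopsis gene. The words were transcription factor, DNA-binding, zinc finger, homeobox, myb, bHLH and NAC domain. They matched 87 of the 1998 interval models used here, and 18 were left out because their description also named WRKY, AGAMOUS, squamosa, auxin, cycling, B-box, kinase, RING or ubiquitin. Of the 69 members, 12 lay on LG3 and 57 on LG4, out of 19951 gene models in the deposited expression table. The interval models used ended at position 43717084 on LG3 and 7439980 on LG4. On LG4 this is short of the end of the region that the study gives, and factors beyond it are not covered. No description was given for 550 of 974 interval models on LG3 and 107 of 1024 on LG4, so the keywords could reach fewer models on LG3. The words also matched proteins that are not transcription factors. By protein family, 48 members belonged to DNA-binding families and 21 matched by other descriptions, such as enzymes and meiotic proteins.

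Transcripts were sequenced from axillary buds of 2 raspberry cultivars, 3 libraries of ‘Heritage’ (AF) and 3 of ‘Wakefield’, which is biennial fruiting (BF). AF plants flower on canes of the current year, and BF plants on canes that have passed a winter. Both cultivars were grown in the same field, and the buds were taken on a single spring date from nodes below the shoot apex. Each fruiting habit is represented by 1 cultivar, so habit and cultivar cannot be told apart, and the 3 libraries, described as biological replicates, measure the spread within each cultivar.

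Transcription factors bind short DNA motifs and set how strongly nearby genes are transcribed, and the plant families are named for the fold that touches DNA. MYB, NAC, basic helix-loop-helix (bHLH), homeobox, bZIP, C2H2 zinc finger and MADS-box proteins are among the large families in plants. In buds, KNOX homeobox proteins keep the meristem undifferentiated, boundary MYB proteins separate organs from the stem, and MADS-box proteins specify floral organs. The gene roles given below are known from Arabidopsis. They were not tested in raspberry.

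Values are normalized counts, which are reads per gene model divided by 1 size factor per library. They are given in the order of libraries 62, 63 and 64 for ‘Heritage’ and 59, 60 and 61 for ‘Wakefield’. No gene lengths were used, so levels are compared between cultivars and not between genes. A fold change is the log2 difference of ‘Heritage’ minus ‘Wakefield’ on the log2(value + 1) scale with its standard error (SE), and an adjusted p comes from limma over 17898 gene models. A member is called higher or lower at an adjusted p under 0.05. Reads recovered per library ran between 7345603 and 14977596, the fewest in Wakefield 60. Transcripts of 4 shoot meristem and bud markers, STM, KNAT6, ATML1 and TCP12, were present in every library. Their summed normalized count was 3404 to 3498 in ‘Heritage’ and 3289 to 4051 in ‘Wakefield’. STM was the largest part, with means of 2397 in ‘Heritage’ and 2475 in ‘Wakefield’. In limma 0 of these 4 passed. ATML1 was lower in every ‘Heritage’ library (mean 414, against 715 in ‘Wakefield’), with an unadjusted limma p under 0.05. It had an adjusted p under 0.05 in edgeR (0.0239) and DESeq2 (0.00363). Of 4 photosynthetic leaf markers 3 were lower in ‘Heritage’ and none was at 0, while without Heritage 62 or 63 the call held for PSAF alone of these 3 (adjusted p of at most 0.0363 without any 1 library), and LHB1B1 also lost it without Wakefield 59 or 60. The fourth, PSBQ, was lower in every ‘Heritage’ library (fold change -0.54, limma adjusted p = 0.0575) and was called by edgeR (0.0242) and DESeq2 (0.00593). The sums of the 4 were 6868 to 7657 in ‘Heritage’ and 9889 to 14130 in ‘Wakefield’. In bulk samples fewer cells of a type and less RNA per cell cannot be told apart, and the part of leaf tissue in the results on members was not tested.

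Between the cultivars, 8 members were higher and 11 lower in ‘Heritage’, 45 did not pass, and 5 had too few reads to be tested. The 19 called members were 29.7% of the 64 tested, close to the 33.5% called among all gene models tested, where 16.0% were higher and 17.5% lower. The median fold change of the members was 0.02 and their median absolute fold change 0.30, against 0.01 and 0.38 over all gene models tested. A fold change above 1 or below -1 was found for 8 members, or 12.5%, against 18.6% of all models. Under the stricter rule of an adjusted p under 0.01 and such a fold change, 1 member was higher and 2 were lower, where 9.62% of all models passed (4.45% higher and 5.17% lower). The number of members called changed when 1 library was left out. Such a fit has fewer libraries for every gene model, and its share over all gene models is not given here. It was 5 higher without Heritage 62, 4 without Heritage 63, and 5 without Heritage 64, Wakefield 60 or Wakefield 61. The number lower was 5 without Heritage 63 and 7 without Wakefield 60. Under the stricter rule 0 members were higher in limma whichever library was left out. There 2 were lower without Wakefield 59, 1 without Wakefield 61 and 0 without any other single library.

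Among the DNA-binding families, 7 members were higher and 5 lower of 44 tested, which is 27.3%. Without Heritage 62, 63 or 64 the number higher was 4, 3 and 4 in turn, and without Wakefield 60 or 61 it was 2 and 4. The number lower was 3 without Heritage 63 or 64 and 3 without Wakefield 59 or 60. Among the other keyword members, 1 was higher and 6 lower of 20 tested, which is 35.0%. There 3 were higher without Wakefield 60, and 2 were lower without Heritage 63. On LG3, 3 members were higher and 0 lower of 10 tested by limma, with NAC010 the only one lower at an unadjusted p under 0.05 and also called lower by edgeR and DESeq2. On LG4, 5 were higher and 11 lower of 54 tested. The called shares were 30.0% on LG3 and 29.6% on LG4, against 33.5% of all gene models tested. The directions on LG3 and LG4 were not compared by a test.

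The libraries of the cultivars did not overlap for 31 of the 64 members tested, or 48.4%, against 53.2% of all gene models tested. These 31 include all 19 called members and 12 that did not pass. Called fold changes ranged in size from 0.31 for HB13 to 1.92 for MYB63.

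**Figure D1:**
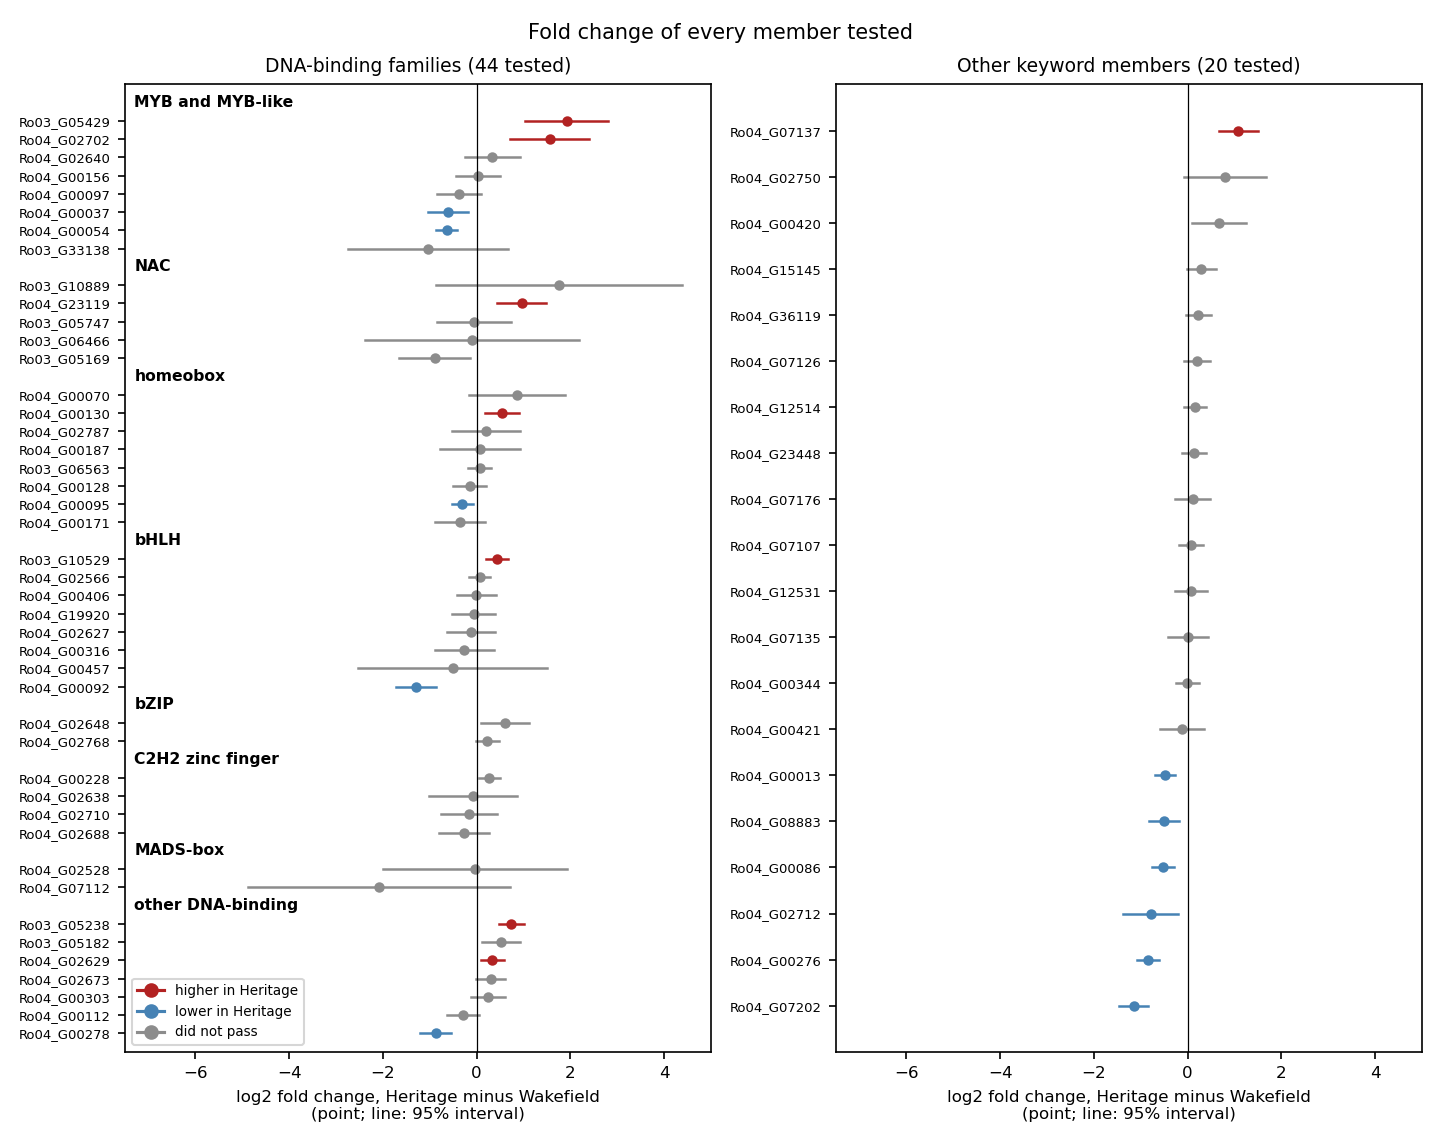
Log2 fold change of ‘Heritage’ minus ‘Wakefield’ (horizontal axis) for the 64 members tested, with 44 DNA-binding family members by family on the left and 20 other keyword members on the right. Points are limma estimates and lines 95% intervals. Red points are the 8 members called higher in ‘Heritage’, blue the 11 called lower, and grey the 45 that did not pass. The interval of Ro04_G07112, whose ‘Wakefield’ libraries were far apart, covers both directions.

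The MYB family had the most called members, with 2 higher and 2 lower of 8 tested. Over all gene models tested 33.5% were called, and whether the family differed from this share was not tested. The calls of MYB62 and MYB16 depended on single libraries, as given below. MYB63 activates genes of lignin synthesis. The gene model Ro03_G05429 (chromosome 3, position 35076459), closest to MYB63, had 24.1, 19.1 and 37.1 normalized counts in the ‘Heritage’ libraries, against 9.39, 6.22 and 3.71 in the ‘Wakefield’ libraries. Every ‘Heritage’ library stood above every ‘Wakefield’ library, on few reads, 83 over the ‘Heritage’ libraries and 19 over the ‘Wakefield’ libraries. Its fold change was 1.92 ± 0.36 SE (limma adjusted p = 0.0121). The gene model Ro03_G05893 has the same closest Arabidopsis gene and lies at position 41860431 of chromosome 3. It held 4.19, 8.18 and 5.71 in ‘Heritage’ and 3.76, 3.11 and 3.71 in ‘Wakefield’, which was below the filter, so it was not tested. The sources do not say how reads that fit both copies were assigned.

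MYB62 acts in the response to phosphate starvation and lowers gibberellin synthesis. Its closest model Ro04_G02702 (chromosome 4, position 4840368) had 993, 481 and 422 in ‘Heritage’, against 240, 182 and 178 in ‘Wakefield’. The cultivars did not overlap, although Heritage 62 was far above the other ‘Heritage’ libraries. The fold change was 1.56 ± 0.34 SE (limma adjusted p = 0.0195). The call was lost without Wakefield 60 (adjusted p = 0.0575) and without Wakefield 61 (adjusted p = 0.0532). It held without Heritage 62 (adjusted p = 0.0178).

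A pair of MYB genes of the shoot surface and organ boundaries were lower in ‘Heritage’. MYB117, also named LATERAL ORGAN FUSION1, separates lateral organs from the stem and is needed for accessory meristems. Its model Ro04_G00054 (chromosome 4, position 3071814) had 142, 138 and 130 in ‘Heritage’, against 217, 216 and 206 in ‘Wakefield’. Libraries of each cultivar lay close together and the groups did not overlap. The fold change was -0.64 ± 0.09 SE (limma adjusted p = 0.00555). MYB16 shapes epidermal cells and promotes cuticle formation. Its model Ro04_G00037 (chromosome 4, position 3157448) had 511, 509 and 465 in ‘Heritage’, against 866, 837 and 586 in ‘Wakefield’. Again the groups did not overlap, with Wakefield 61 nearest to ‘Heritage’. The fold change was -0.60 ± 0.17 SE (limma adjusted p = 0.0426). Its adjusted p was 0.00971 without Wakefield 61 and 0.092 to 0.115 without any other single library, and it was 0.0513 with no filter on low values.

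The other MYB models tested did not pass. MYB88, which ends divisions in the stomatal lineage, had 222, 284 and 304 in ‘Heritage’ and 309, 429 and 316 in ‘Wakefield’ for Ro04_G00097. The groups did not overlap but came within a few counts of each other (fold change -0.38 ± 0.19 SE, limma adjusted p = 0.171). The model Ro03_G33138, listed as ATM4, had 19.9, 5.45 and 3.81 in ‘Heritage’ and 32.9, 17.1 and 8.17 in ‘Wakefield’. Its libraries overlapped and varied several-fold within both cultivars (fold change -1.04 ± 0.70 SE, limma adjusted p = 0.288). MYB4, a repressor of phenylpropanoid genes (Ro04_G00156), and the MYB-like model Ro04_G02640 had fold changes of 0.03 and 0.34. The model Ro03_G05746, listed as MYB67, was not tested. It was at 0 in 2 ‘Heritage’ libraries, and 2 reads were recovered over the ‘Heritage’ libraries and 13 over the ‘Wakefield’ libraries.

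NAC proteins include switches of secondary wall formation and of ageing. NAC083, also named VND-INTERACTING2, represses xylem vessel genes and delays leaf senescence. Its model Ro04_G23119 (chromosome 4, position 6971914) had 3129, 2072 and 1923 in ‘Heritage’, against 1367, 1143 and 1085 in ‘Wakefield’. No library of 1 cultivar reached those of the other, and library 62 was the highest in ‘Heritage’. The fold change was 0.96 ± 0.21 SE (limma adjusted p = 0.0204). It missed the threshold without Heritage 63 (adjusted p = 0.0521), Wakefield 60 (0.0587) or Wakefield 61 (0.0552). NAC083 was the only NAC model called of 5 tested.

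NAC010, an activator of secondary wall genes also named SND3, had 74.3, 104 and 97.1 in ‘Heritage’ and 272, 132 and 137 in ‘Wakefield’ for Ro03_G05169. All ‘Heritage’ libraries were below all ‘Wakefield’ libraries, and Wakefield 59 was well above the others of its cultivar. The fold change of -0.90 ± 0.31 SE did not pass in limma (adjusted p = 0.0719) and passed in edgeR (0.0422) and DESeq2 (0.0138). NAC042, or JUNGBRUNNEN1, a factor that prolongs leaf life, had 22.0, 19.1 and 5.71 in ‘Heritage’ and 16.0, 0 and 3.71 in ‘Wakefield’ for Ro03_G10889. These libraries overlapped (fold change 1.76 ± 1.07 SE, limma adjusted p = 0.248). NAC057 (Ro03_G05747) had a fold change of -0.06, and NAC056, a factor of the seed coat (Ro03_G06466), one of -0.10. The secondary wall and xylem markers CESA8 and XCP2 did not pass in limma, edgeR or DESeq2, and 0 of the 2 had an unadjusted p under 0.05. Their fold changes were -0.32 ± 0.35 SE and -0.26 ± 0.13 SE in turn. Their summed normalized counts were 7468 to 10050 in ‘Heritage’ and 9771 to 11000 in ‘Wakefield’. Whether the share of wall or xylem tissue differed was not tested.

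Of 8 homeobox models tested, 1 was higher and 1 lower, which is 25.0%, against 33.5% of all gene models tested. The higher one, Ro04_G00130 (chromosome 4, position 2650510), is described as a homeobox leucine zipper (HD-Zip) protein. It had 253, 194 and 199 in ‘Heritage’, against 162, 149 and 132 in ‘Wakefield’. The groups did not overlap (fold change 0.53 ± 0.15 SE, limma adjusted p = 0.0380). Its adjusted p was 0.0453 without Wakefield 59 and 0.0715 to 0.0925 without any other single library. HB13, an HD-Zip protein that limits inflorescence stem growth, was lower, although its change was the smallest among the called members. Its model Ro04_G00095 (chromosome 4, position 2852488) had 1802, 1921 and 1835 in ‘Heritage’, against 2345, 2198 and 2326 in ‘Wakefield’. The groups were well apart relative to their spread (fold change -0.31 ± 0.09 SE, limma adjusted p = 0.0467). The adjusted p was 0.0761 to 0.123 whichever library was left out, and 0.0564 with no filter.

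KNAT6, a KNOX protein of the meristem and its boundary (Ro04_G02787), did not differ beyond its spread. It had 548, 605 and 583 in ‘Heritage’ and 312, 650 and 627 in ‘Wakefield’, with Wakefield 59 alone far below the rest (fold change 0.20 ± 0.30 SE, limma adjusted p = 0.627). HB34, a zinc finger homeodomain protein, had 163, 141 and 99.0 in ‘Heritage’ and 134, 57.5 and 47.5 in ‘Wakefield’ for Ro04_G00070. The groups overlapped because of Wakefield 59. Its fold change was 0.87 ± 0.42 SE (limma adjusted p = 0.159), with an adjusted p of 0.0172 without that library. HB17, an HD-Zip protein of the shade response, had 9.42, 15.4 and 13.3 in ‘Heritage’ and 15.0, 14.0 and 20.1 in ‘Wakefield’ for Ro04_G00171. These overlapped (fold change -0.35 ± 0.22 SE, limma adjusted p = 0.259). The remaining homeobox models had fold changes of -0.15 for homeobox 3 (Ro04_G00128), 0.06 for HB-1 (Ro03_G06563), a partner of chromatin remodellers, and 0.07 for WOX1 (Ro04_G00187), which promotes blade outgrowth. None of the 3 passed.

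Among 8 bHLH models tested, 1 was higher and 1 lower, which is 25.0%, against 33.5% of all gene models tested. bHLH115 activates genes of iron uptake under iron deficiency. Its model Ro03_G10529 (chromosome 3, position 42174205) had 1352, 1306 and 1369 in ‘Heritage’, against 937, 1005 and 1051 in ‘Wakefield’. The ‘Heritage’ libraries were close together and all above ‘Wakefield’ (fold change 0.43 ± 0.09 SE, limma adjusted p = 0.0197). Its adjusted p was 0.0606 without Heritage 62, 0.0722 without Heritage 63, 0.0625 without Heritage 64 and 0.0505 without Wakefield 60. KIDARI is a small helix-loop-helix protein without the basic region that binds DNA. It holds other bHLH proteins inactive and promotes cell elongation. The model Ro04_G00092 (chromosome 4, position 2868903) had 12.6, 17.3 and 13.3 in ‘Heritage’, against 31.9, 43.6 and 34.9 in ‘Wakefield’. All ‘Heritage’ libraries were below all ‘Wakefield’ libraries (fold change -1.30 ± 0.17 SE, limma adjusted p = 0.00442). This was the only DNA-binding family member past the stricter rule, on 45 reads over the ‘Heritage’ libraries and 109 over the ‘Wakefield’ libraries.

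The bHLH models that did not pass had fold changes between -0.51 and 0.07. For Ro04_G00316 the values were 28.3, 46.3 and 38.1 in ‘Heritage’ and 58.2, 43.6 and 34.2 in ‘Wakefield’, which overlapped (fold change -0.26 ± 0.26 SE, limma adjusted p = 0.467). T5L1, which promotes cell division in vascular tissue (Ro04_G02627), and BIG PETAL P, which limits petal size (Ro04_G00406), had fold changes of -0.12 and -0.01. CESTA, a factor of brassinosteroid synthesis, was not tested. Its model Ro04_G02701 had 5.23, 6.36 and 6.67 in ‘Heritage’ and 2.82, 1.56 and 0.74 in ‘Wakefield’. These did not overlap, on 19 and 5 reads in all. The model lies 7122 bp from MYB62, the next member on the chromosome.

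**Figure D2:**
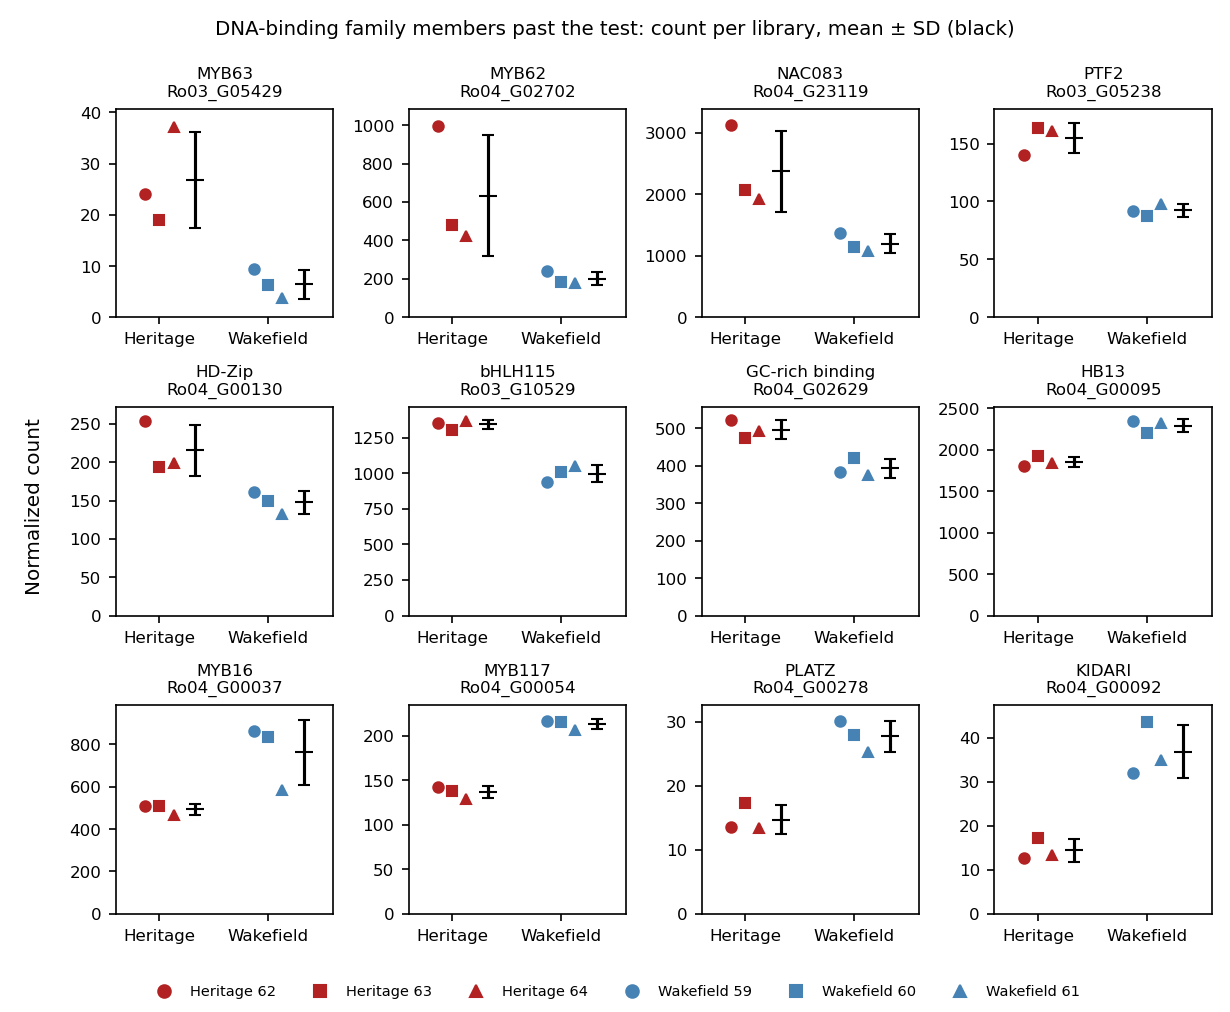
Normalized count per library (vertical axes, starting at 0) of the 12 DNA-binding family members that passed the test, ‘Heritage’ in red on the left and ‘Wakefield’ in blue on the right of each panel. Marker shapes name the library, and black bars give the mean ± SD of 3 libraries. The cultivars do not overlap in any of the 12 panels. Heritage 62 is the highest library for MYB62 and NAC083, with 993 and 3129 normalized counts.

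No bZIP, C2H2 zinc finger or MADS-box model was called by limma, where 33.5% of all gene models tested were called. With so few models per family, a difference from this share was not tested. At an unadjusted p under 0.05 there was 1 of 2 bZIP models, 1 of 4 C2H2 models and 0 of 2 MADS-box models. edgeR called 0, 1 and 0 of them, and DESeq2 1 of each family. TGA2, a bZIP cofactor of salicylic acid signalling, had 396, 313 and 338 in ‘Heritage’ and 287, 174 and 234 in ‘Wakefield’ for Ro04_G02648. The groups did not overlap (fold change 0.61 ± 0.21 SE, limma adjusted p = 0.0682). Its adjusted p was 0.0285 in DESeq2 and, in limma, 0.032 without Wakefield 59. bZIP17, which is released from the endoplasmic reticulum under stress, had 1438, 1446 and 1376 in ‘Heritage’ and 1096, 1260 and 1279 in ‘Wakefield’ for Ro04_G02768. These did not overlap either (fold change 0.23 ± 0.10 SE, limma adjusted p = 0.136).

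The C2H2 model with the smallest p was ZINC FINGER PROTEIN 7, Ro04_G00228. It had 863, 838 and 885 in ‘Heritage’ and 692, 753 and 708 in ‘Wakefield’. The groups were apart, but the fold change of 0.26 ± 0.09 SE did not pass in limma (adjusted p = 0.0712), while edgeR (0.0427) and DESeq2 (0.0496) called it. JAGGED, which promotes growth of leaf blades and petals, had 52.3, 30.9 and 32.4 in ‘Heritage’ and 46.0, 42.0 and 47.5 in ‘Wakefield’ for Ro04_G02688. Heritage 62 was above every ‘Wakefield’ library and the other ‘Heritage’ libraries were below every one, so the ranges overlapped (fold change -0.26 ± 0.22 SE, limma adjusted p = 0.379). Without Heritage 62 the adjusted p was 0.0434. GIS3, a factor of trichome growth (Ro04_G02710), and Ro04_G02638 had fold changes of -0.16 and -0.07. The C2H2 model Ro04_G15165 was not tested, on 23 reads over the ‘Heritage’ libraries and 23 over the ‘Wakefield’ libraries.

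SEPALLATA3 (SEP3) is a MADS-box protein that floral organ identity complexes need, and 2 models shared it as closest gene. The model Ro04_G07112 (chromosome 4, position 6757201) had 7.32, 6.36 and 11.4 in ‘Heritage’ and 221, 29.6 and 7.43 in ‘Wakefield’. The model Ro04_G02528 (chromosome 4, position 3743388) had 99.4, 103 and 81.9 in ‘Heritage’ and 356, 68.4 and 36.4 in ‘Wakefield’. In both, Wakefield 59 was far above the other 5 libraries and Wakefield 61 was within or below the ‘Heritage’ range. Neither passed in limma, with fold changes of -2.08 ± 1.14 SE (adjusted p = 0.206) and -0.03 ± 0.80 SE (adjusted p = 0.979). DESeq2 called Ro04_G07112 (adjusted p = 0.00180), where 26 reads were recovered over the ‘Heritage’ libraries and 264 over the ‘Wakefield’ libraries. Here too, the assignment of reads that fit both models is not stated.

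Among 7 models of other DNA-binding families, 2 were higher and 1 lower, which is 42.9%. The share over all gene models tested was 33.5%, and a difference from it was not tested. PTF2 is a TFIIB-like general factor needed in pollen. Its model Ro03_G05238 (chromosome 3, position 40299394) had 140, 164 and 161 in ‘Heritage’, against 92.1, 87.1 and 98.0 in ‘Wakefield’. The groups were well apart (fold change 0.74 ± 0.11 SE, limma adjusted p = 0.00600). The model Ro04_G02629 (chromosome 4, position 4404610), described as GC-rich sequence DNA-binding factor-like, had 523, 473 and 492 in ‘Heritage’, against 383, 422 and 375 in ‘Wakefield’. These did not overlap (fold change 0.34 ± 0.10 SE, limma adjusted p = 0.0479), and the adjusted p was 0.0609 to 0.130 whichever library was left out and 0.0576 with no filter. The PLATZ zinc finger model Ro04_G00278 (chromosome 4, position 1745980) had 13.6, 17.3 and 13.3 in ‘Heritage’, against 30.1, 28.0 and 25.3 in ‘Wakefield’. It was lower in every ‘Heritage’ library (fold change -0.88 ± 0.14 SE, limma adjusted p = 0.00712), on 46 and 84 reads, and was not called by DESeq2 (adjusted p = 0.113).

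VOZ1, a partner of phytochrome B that promotes flowering, had 2785, 2182 and 1997 in ‘Heritage’ and 1441, 1790 and 1601 in ‘Wakefield’ for Ro03_G05182. The groups did not overlap, yet the fold change of 0.52 ± 0.16 SE did not pass in limma (adjusted p = 0.0545). It passed in edgeR (0.0268) and DESeq2 (0.00631). ABR1, an ERF repressor of abscisic acid responses, had 873, 915 and 894 in ‘Heritage’ and 686, 659 and 852 in ‘Wakefield’ for Ro04_G02673. They did not overlap (fold change 0.30 ± 0.13 SE, limma adjusted p = 0.122), and the adjusted p was 0.0419 without Wakefield 61. GAI, a DELLA protein that restrains gibberellin responses (Ro04_G00303), and WHY1, which binds single-stranded DNA in plastids (Ro04_G00112), had fold changes of 0.25 and -0.30. Neither passed, and in both the cultivars did not overlap.

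The fine-mapped part of LG4 held 2 of the members, the SEP3 model Ro04_G02528 and the bHLH model Ro04_G02566. The bHLH model (chromosome 4, position 4016252) had 879, 874 and 908 in ‘Heritage’ and 813, 888 and 841 in ‘Wakefield’. The libraries overlapped (fold change 0.07 ± 0.09 SE, limma adjusted p = 0.600), and the 95% interval of the log2 difference was -0.16 to 0.29. The SEP3 model, with its unequal ‘Wakefield’ libraries, had a far wider interval that reached 1.94 upwards and about as far downwards.

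The other keyword members matched the words but were not placed in a DNA-binding transcription factor family. Most descriptions name a zinc finger or DNA binding, and a few name a putative factor. Both HORMA domain proteins were called, in opposite directions. ASY1 builds the axis of meiotic chromosomes. Its model Ro04_G07137 (chromosome 4, position 6578144) had 436, 355 and 372 in ‘Heritage’, against 185, 218 and 150 in ‘Wakefield’. All ‘Heritage’ libraries were above all ‘Wakefield’ libraries (fold change 1.08 ± 0.17 SE, limma adjusted p = 0.00702). MAD2, which delays division until chromosomes are attached to the spindle, had 269, 263 and 224 in ‘Heritage’, against 509, 561 and 611 in ‘Wakefield’ for Ro04_G07202 (chromosome 4, position 6187106). Its libraries were far apart (fold change -1.15 ± 0.13 SE, limma adjusted p = 0.00245). These were the only members of this kind past the stricter rule.

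The remaining 5 called members of this kind were lower in ‘Heritage’. The Ran-binding zinc finger model Ro04_G00276 (chromosome 4, position 1750950) had 203, 199 and 181 in ‘Heritage’, against 347, 345 and 354 in ‘Wakefield’. The ‘Wakefield’ libraries were nearly equal and well above ‘Heritage’ (fold change -0.84 ± 0.09 SE, limma adjusted p = 0.00270). DHHC proteins attach fatty acids to other proteins, and 2 of the 3 DHHC members were lower. Ro04_G00013 (chromosome 4, position 3314191) had 988, 962 and 951 in ‘Heritage’, against 1389, 1320 and 1355 in ‘Wakefield’. The libraries of each cultivar lay close together (fold change -0.49 ± 0.09 SE, limma adjusted p = 0.0106), and the call was lost without Heritage 63 (adjusted p = 0.0548). Ro04_G08883 (chromosome 4, position 7434385) had 129, 101 and 115 in ‘Heritage’, against 148, 170 and 172 in ‘Wakefield’. They did not overlap (fold change -0.50 ± 0.13 SE, limma adjusted p = 0.0321). Its adjusted p was 0.111 without Heritage 63, 0.0819 without Heritage 64, 0.0858 without Wakefield 60 and 0.0796 without Wakefield 61. The third DHHC member, Ro04_G12514, had a fold change of 0.15 and did not pass.

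The model Ro04_G00086 (chromosome 4, position 2916520), an RCC1 family protein with a FYVE zinc finger, had 403, 379 and 408 in ‘Heritage’, against 549, 551 and 613 in ‘Wakefield’. The groups did not overlap (fold change -0.52 ± 0.10 SE, limma adjusted p = 0.0122), and the adjusted p was 0.0611 without Heritage 63. BRUTUS is a ubiquitin ligase of the iron response that promotes degradation of bHLH115. Its model Ro04_G02712 (chromosome 4, position 4893266) had 247, 393 and 457 in ‘Heritage’, against 565, 653 and 623 in ‘Wakefield’. The groups did not overlap, and Heritage 62 was the lowest (fold change -0.79 ± 0.24 SE, limma adjusted p = 0.0499). This adjusted p was next to the threshold. It was 0.0425 without Heritage 64, 0.0537 to 0.123 without any other single library, 0.0537 with a pseudocount of 0.1 and 0.0593 with no filter. bHLH115 was higher and BRUTUS lower in ‘Heritage’. The bHLH115 call was lost without Heritage 62, 63 or 64 or Wakefield 60. Among the fits with 1 library left out, the BRUTUS call held only without Heritage 64. These values are transcript levels, and a link between the genes was not tested.

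Of the other keyword members that did not pass, the helicase model Ro04_G00420 had 92.1, 59.1 and 84.8 in ‘Heritage’ and 42.3, 62.2 and 42.3 in ‘Wakefield’. Wakefield 60 overlapped ‘Heritage’ (fold change 0.67 ± 0.23 SE, limma adjusted p = 0.0720), and without it the adjusted p was 0.0483. Its neighbour of the same description, Ro04_G00421, lies 979 bp away and had a fold change of -0.12. The model Ro04_G15145, listed as a putative T-box factor, had 758, 887 and 882 in ‘Heritage’ and 620, 759 and 682 in ‘Wakefield’. These overlapped by 1 library each (fold change 0.29 ± 0.12 SE, limma adjusted p = 0.119). The CCCH zinc finger model Ro04_G02750 had a fold change of 0.80 and passed only without Wakefield 60 (adjusted p = 0.0386). The other 8 tested had fold changes of at most 0.23 in size. The helicase model Ro04_G00212 was not tested, on 9 reads over the ‘Heritage’ libraries and 14 over the ‘Wakefield’ libraries.

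**Figure D3:**
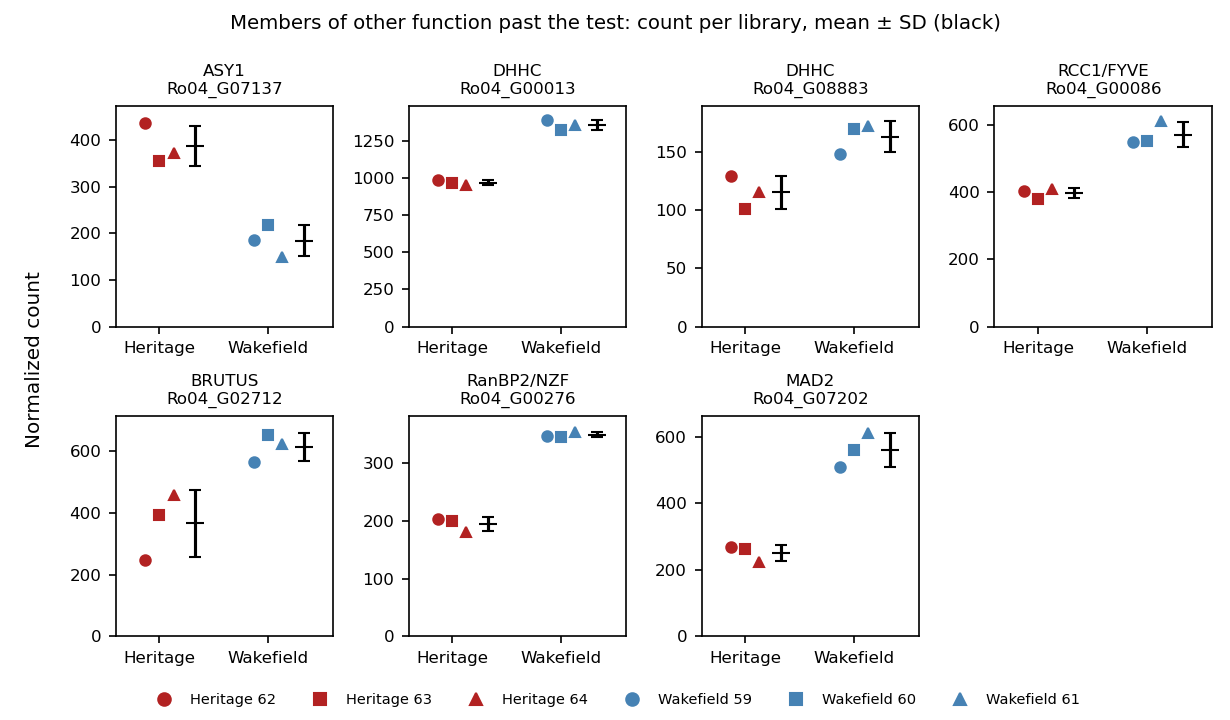
Normalized count per library (vertical axes, starting at 0) of the 7 other keyword members that passed the test, ‘Heritage’ in red on the left and ‘Wakefield’ in blue on the right of each panel, with black bars for the mean ± SD of 3 libraries. ASY1 is above ‘Wakefield’ in all ‘Heritage’ libraries, and the other 6 are below it. BRUTUS has the widest spread in ‘Heritage’, between 247 and 457.

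Within the cultivars, members varied about as all gene models did. The median SD on the log2 scale was 0.17 in ‘Heritage’ and 0.21 in ‘Wakefield’ for members, and 0.15 and 0.20 over all gene models tested. Libraries of ‘Heritage’ spanned more than 1 log2 unit for 5 members (7.81%, against 6.60% of all models). Libraries of ‘Wakefield’ did so for 12 members (18.8%, against 15.4% of all models). Wakefield 59 was the library farthest from the other pair in 6 of these 12, and Wakefield 60 and Wakefield 61 in 3 each. Over all models, Wakefield 59 was the farthest in 1196 of the 2752 that spanned as much. The 6 members included both SEP3 models, HB34 and NAC010, where Wakefield 59 was the highest library. For KNAT6, Wakefield 59 was the lowest. In ‘Heritage’, library 62 was the farthest from the other pair for 31 of 64 members (48.4%), near the 46.0% over all models.

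**Figure D4:**
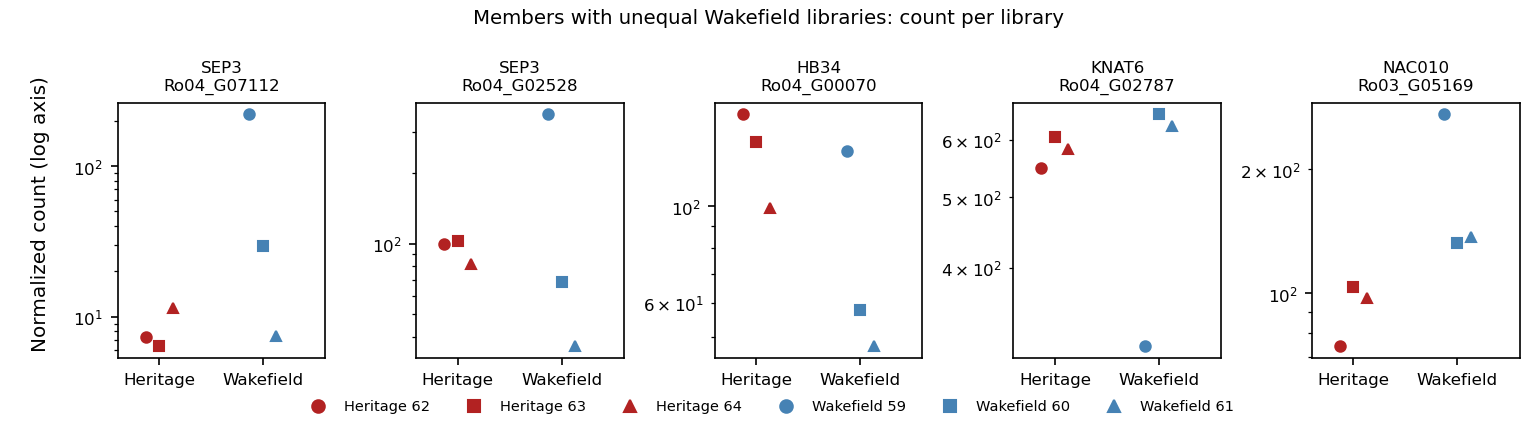
Normalized count per library on a log axis for 5 members, ‘Heritage’ in red on the left and ‘Wakefield’ in blue on the right of each panel. They are among the 12 members whose ‘Wakefield’ libraries spanned more than 1 log2 unit, and all 5 have Wakefield 59 farthest. Wakefield 59 (circle) lies above the other ‘Wakefield’ libraries for both SEP3 models, HB34 and NAC010, at 221, 356, 134 and 272, and below them for KNAT6 at 312.

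Several called members lay near each other on LG4, a pattern noticed after the values were seen. HB13 and KIDARI are 16415 bp apart with 2 interval gene models between them, and KIDARI and the RCC1 model 47617 bp apart with 5. No other member lies between either pair, and all 3 were lower in ‘Heritage’. The next called members beyond them, MYB117, MYB16 and the DHHC model Ro04_G00013, were lower too. MYB117 and MYB16 are 85634 bp apart with 12 interval gene models between them. On the other side of HB13 the next called member, the HD-Zip model Ro04_G00130, was higher. The PLATZ and Ran-binding zinc finger models, 4970 bp apart with 1 other gene model between them, were both lower. Neighbouring models can share reads where they overlap, and this was not tested.

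A further 39 interval models that the keywords do not match were listed by hand as transcription factors, from their description or closest Arabidopsis gene. The list follows no fixed rule and holds none of the 18 keyword matches that were left out. Of the 35 listed models tested, 6 were higher and 3 lower in ‘Heritage’, which is 25.7%, against 33.5% of all gene models tested. The number higher was 3 without Heritage 62, and the number lower was 1 without Heritage 63, Heritage 64 or Wakefield 61. TCP14, which promotes internode growth and seed germination, had 348, 359 and 290 in ‘Heritage’, against 161, 157 and 171 in ‘Wakefield’ for Ro04_G00084. All ‘Heritage’ libraries were above all ‘Wakefield’ libraries (fold change 1.02 ± 0.12 SE, limma adjusted p = 0.00304). TCP14 lies 13929 bp from the RCC1 model, between it and MYB117, which were both lower. HSI2, a repressor of seed genes, was higher too, with a fold change of 0.54 ± 0.14 SE for Ro03_G05930 (limma adjusted p = 0.0316).

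The homeodomain-like models Ro04_G23456 and Ro04_G08854 had fold changes of 0.79 ± 0.13 SE (limma adjusted p = 0.00785) and 0.70 ± 0.14 SE (adjusted p = 0.0159), both higher in ‘Heritage’. NF-YC proteins are histone-fold subunits of the factor that binds CCAAT boxes, and both called NF-YC models were lower. The model listed as ATHAP5B, Ro03_G15844, had 342, 337 and 330 in ‘Heritage’, against 457, 568 and 620 in ‘Wakefield’. The ‘Heritage’ libraries were nearly equal and below ‘Wakefield’ (fold change -0.69 ± 0.14 SE, limma adjusted p = 0.0145), with an adjusted p of 0.0576 without Heritage 63. NF-YC13, Ro04_G07141, had 39.8, 49.1 and 31.4 in ‘Heritage’, against 80.8, 62.2 and 98.0 in ‘Wakefield’. Its groups did not overlap (fold change -0.98 ± 0.23 SE, limma adjusted p = 0.0231), and its adjusted p was 0.0521 to 0.0709 without Heritage 62, Heritage 64, Wakefield 59 or Wakefield 61. HSI2 had an adjusted p of 0.0355 without Wakefield 60 and 0.0517 to 0.0919 without any other single library. The remaining called factors were ERF12 (Ro03_G06548) and ERF9 (Ro03_G06550), higher by 0.65 and 0.33 on the log2 scale, and Ro04_G07200, a homeodomain-like model 1888 bp from MAD2 that was lower with a fold change of -0.43. Each of these 3 calls was lost without at least 4 of the libraries taken singly.

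Of the 19 called members, 7 kept an adjusted p under 0.05 in every setting that tested them. These were MYB63, MYB117, KIDARI, PTF2, ASY1, MAD2 and the Ran-binding zinc finger model Ro04_G00276. MYB63 and KIDARI were below the filter of at least 50 and were not tested there. No called member changed direction in any setting run. edgeR called all 19 and DESeq2 18, without the PLATZ model. Of the 64 members tested in limma, edgeR called 22, against 6666 of 17898 gene models (37.2%). DESeq2 called 23 of these 64, against 7082 of the 19939 models it gave an adjusted p (35.5%). Those 19939 include models below the limma filter, so the DESeq2 shares are not of like sets.

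**Figure D5:**
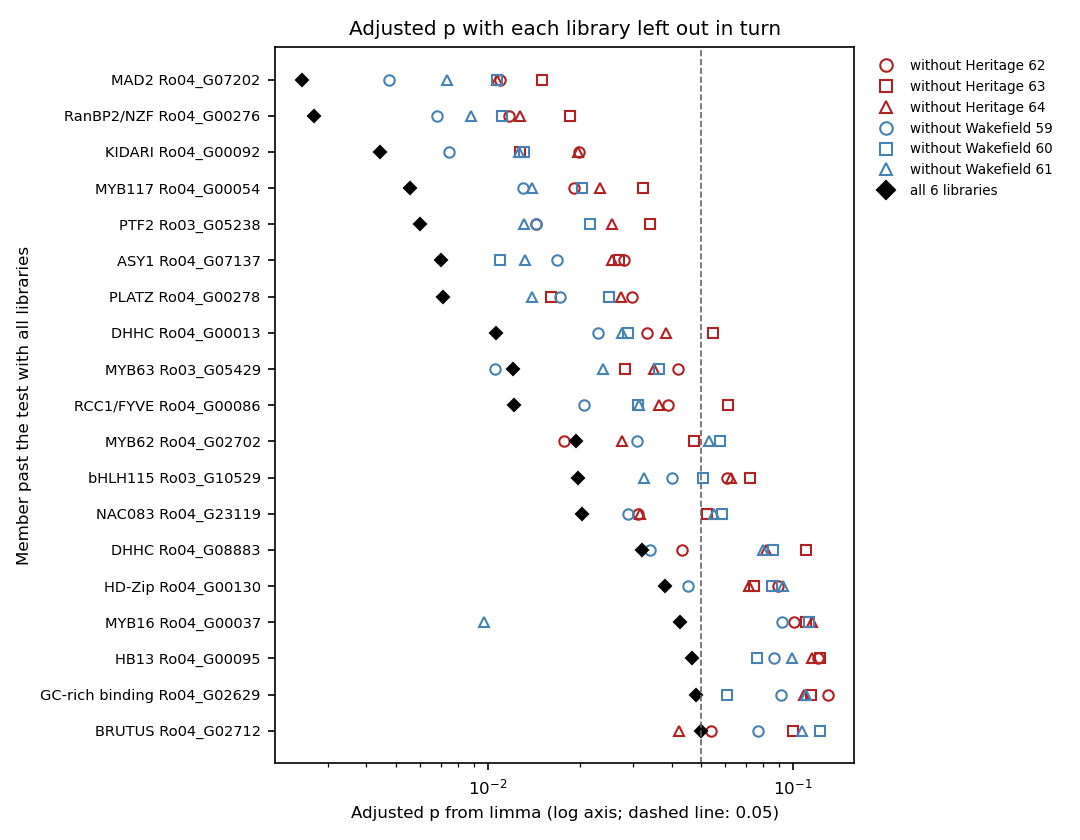
Adjusted p from limma (log axis) for the 19 called members with all 6 libraries (black diamonds) and with each library left out in turn (open symbols, red for ‘Heritage’ and blue for ‘Wakefield’). The dashed line marks 0.05. MAD2 and the Ran-binding model stay below the line throughout, with values of at most 0.0151 and 0.0186, whereas HB13 and the GC-rich binding model cross it whichever library is left out.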

How the data were processed

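The authors trimmed reads with Trimmomatic, removed ribosomal reads with SortMeRNA, used STAR to align them to the black raspberry (R. occidentalis, assembly ORUS 4115-3 v3.0) models, and normalized counts with DESeq2, with versions not given. How reads were counted, and on which strand, is not stated, although the library kit keeps strand. Reads of both cultivars met the gene models of another species, so a sequence difference and a level difference cannot be told apart. The deposited signal values are normalized counts, and all values were whole multiples of 1 read per library within 0.001 of a read. The authors also deposited their own comparison as a log2 fold change, score columns (a standard error and a Wald statistic) and p-values, which were not used.

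Members and lists were chosen with earlier results of these data known. Positions and closest Arabidopsis genes come from the study's interval table, of which the first 1998 gene models were used. limma 3.58.1 in R 4.3.3 was fitted to log2(value + 1) of gene models with at least 10 in at least 3 of the 6 libraries, with Benjamini-Hochberg adjustment over 17898 models. Alternatives were edgeR 4.0.16 (TMM or RLE scaling) and DESeq2 1.42.0 on the recovered reads, limma with a trend, pseudocounts of 0.1 and 10, no filter, a filter of at least 50, and each library left out in turn. The fits were tested on simulated data. Per-library values are given for called members, members sharing an Arabidopsis gene, members in the fine-mapped part of LG4, and up to 2 others per family with the smallest p. Of the factors outside the keyword rule, the 6 with the smallest adjusted p are described, and KNAT6 and CESTA were added after their values were seen. With 3 libraries per cultivar, a member that did not pass is not shown to be equal.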

Additional observations from a re-analysis of the deposited data

How the results depend on the processing

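No paired analysis was possible because the sources name no matching of ‘Heritage’ with ‘Wakefield’ libraries. With 1 library left out, members higher ranged from 4 to 9 and lower from 5 to 9. DNA-binding family members ranged from 2 to 8 higher and 3 to 4 lower, other keyword members from 1 to 3 higher and 2 to 5 lower, and factors outside the rule from 3 to 6 higher and 1 to 2 lower. Under the stricter rule no member was higher with a library left out (0 in each of the 6 limma fits, against 1 with all libraries), and 0 to 2 were lower. The count of DNA-binding family members lower was 3, in place of 5, with no filter and with a filter of at least 50. Under the stricter rule, 2 members were higher with edgeR (TMM or RLE scaling), with a limma trend or with a pseudocount of 10, and 3 with DESeq2. Likewise 1 was lower, in place of 2, with edgeR (either scaling), a pseudocount of 10 or a filter of at least 50. All other counts stayed within 1.5 times under the scalings, tests, pseudocounts and filters, and no called member changed direction. The cause of these differences was not tested. Scalings moved the median fold change of all gene models by at most 0.03 on the log2 scale. Reads were few for MYB63, KIDARI and PLATZ, which the filter of at least 50 leaves untested.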
